A study of Mus musculus with 12 samples.

Results

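The endocannabinoid genes described here were the cannabinoid receptor Cnr1 and 7 enzymes, Dagla, Daglb, Napepld, Mgll, Abhd6, Abhd12 and Faah. They were taken by gene symbol and make up 8 of the 33024 symbols for which counts were deposited. RNA of brain cortex from 12 C57BL/6 mice was sequenced, 7 controls (Control, labelled as vehicle) and 5 ethanol-administered mice (EtOH). EtOH mice started to drink at 30 days of age, when 20% ethanol by volume was offered beside water for 12 h of each night over 35 days, and 14 days without ethanol and then a set of behavioural tests came before collection. Control mice were given water, as the study's methods describe. They had the same age at the start and the same periods of 35 and 14 days, and both groups shared strain and tissue. The samples were pieces of tissue in which cell types were mixed.

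The CB1 receptor encoded by Cnr1 is a G protein-coupled receptor found mainly on axon terminals, where its activation lowers transmitter release. Its lipid ligands are made on demand, 2-arachidonoylglycerol (2-AG) by the diacylglycerol lipases Dagla and Daglb, and anandamide and related N-acylethanolamines in part by the phospholipase Napepld. Breakdown differs between both ligands, since 2-AG is cleaved by the monoacylglycerol lipase Mgll and by the serine hydrolases Abhd6 and Abhd12, whereas anandamide is cleaved by the amide hydrolase Faah.

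All 8 genes passed the filter on low counts and were tested among 16059 genes. Total counts ranged from 31768079 to 42183031 per mouse. Levels are given as CPM after scaling with TMM factors, which makes libraries of unequal depth comparable, and log2 fold changes compare EtOH with Control. The 8 listed cortex markers, including Tbr1 and Slc17a7, had a summed level of 2302 to 2789 CPM in Control and 2218 to 2780 CPM in EtOH. The sum alone cannot show whether a sample held only cortex. Most of this sum was Slc17a7, at a mean of 1955 CPM in Control and 1906 CPM in EtOH. At an adjusted p under 0.05 with no minimum fold, 3 of the 8 cortex markers were higher, Fezf2 by 0.60 on the log2 scale among them, and 1 was lower, Tbr1 at a log2 fold change of -0.40, beside 12.1% higher and 11.6% lower over all genes tested. Markers of the striatum were also present in every mouse and differed between the groups, with a summed level of 1295 to 2634 CPM in Control and 417 to 508 CPM in EtOH. Because the samples were bulk tissue, fewer cells of a type and less RNA per cell cannot be told apart for any difference below. Neither can be told apart from a difference between the groups in the regions that the dissected pieces held.

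The anandamide enzymes Napepld and Faah were higher in EtOH mice, the main 2-AG hydrolase Mgll was lower, and the receptor Cnr1 and the 2-AG synthases Dagla and Daglb did not pass the test. A gene was called where its adjusted p was below 0.05 and its log2 fold change exceeded 0.5 in either direction, and 1 of the 8 genes was called higher, Napepld, against 4.20% of all genes tested. None was called lower, against 4.09% of all genes tested. This count of 0 came from edgeR and was also obtained with DESeq2 and limma voom, although 2 of the 8 genes were lower at an unadjusted p under 0.05. At an adjusted p under 0.05 with no minimum fold, Napepld, Faah and Abhd6 were higher, 3 of 8 against 12.1% of all genes, and Mgll and Abhd12 were lower, 2 of 8 against 11.6% of all genes. In 3 genes, Napepld, Faah and Mgll, every EtOH mouse lay outside the range of the Control mice, which held for 9.81% of all genes tested. The median log2 fold change of the 8 genes was -0.01, beside a median of 7.21e-05 over all genes, and the median size of the change over all genes was 0.15.

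**Figure D1:**
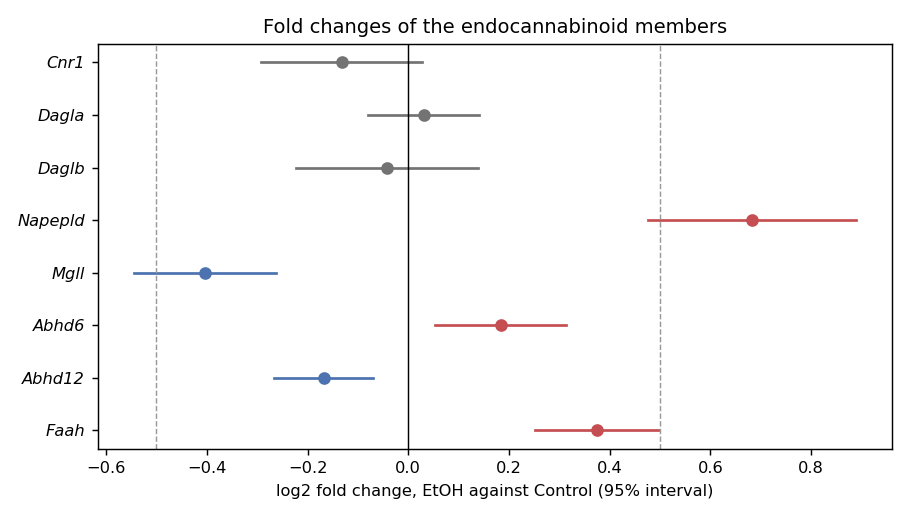
Log2 fold changes of the 8 genes, EtOH against Control, with 95% intervals from edgeR. Red points passed an adjusted p under 0.05 as higher, blue points as lower, grey points did not pass, and dashed lines mark a log2 fold change of 0.5 in size, which only the estimate of Napepld (0.68) exceeded.

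For the 3 genes whose groups did not overlap, the 250 bases before a transcription start are shown so that the sequence context can be read beside the values. They are from RefSeq (GRCm38.p6), written 5′ to 3′ on the strand of the gene, and 6 of the 8 genes had an entry. Capitals mark a GC box (GGGCGG) or an E-box (CACGTG) on either strand, and a TATA motif (TATAAA) and a cAMP response element (TGACGTCA) were searched in the same way. The Napepld window (chr5:21701623-21701872, minus strand) held none of these letters and 21 CpG dinucleotides. The bases just after this start were not found in a Gencode transcript of Napepld, whereas those of Faah and Mgll were found in theirs. The Faah window (chr4:116017925-116018174, minus strand) held 2 GC boxes and 9 CpG dinucleotides. The Mgll window (chr6:88724162-88724411, plus strand), the upstream member of a pair of listed starts, held 1 E-box and 23 CpG dinucleotides. The downstream window of Mgll (chr6:88724454-88724703), which is not printed, held 1 GC box, no E-box and 40 CpG dinucleotides.
Napepld: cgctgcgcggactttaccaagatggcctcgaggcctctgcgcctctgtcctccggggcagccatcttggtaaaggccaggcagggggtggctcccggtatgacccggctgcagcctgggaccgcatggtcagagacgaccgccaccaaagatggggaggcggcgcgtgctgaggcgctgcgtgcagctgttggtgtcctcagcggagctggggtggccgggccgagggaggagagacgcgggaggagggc
Faah: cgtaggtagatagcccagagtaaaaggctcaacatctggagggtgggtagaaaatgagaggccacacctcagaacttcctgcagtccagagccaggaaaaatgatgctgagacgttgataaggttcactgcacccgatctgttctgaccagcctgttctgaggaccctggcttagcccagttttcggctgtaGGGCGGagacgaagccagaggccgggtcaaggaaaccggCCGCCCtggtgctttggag
Mgll: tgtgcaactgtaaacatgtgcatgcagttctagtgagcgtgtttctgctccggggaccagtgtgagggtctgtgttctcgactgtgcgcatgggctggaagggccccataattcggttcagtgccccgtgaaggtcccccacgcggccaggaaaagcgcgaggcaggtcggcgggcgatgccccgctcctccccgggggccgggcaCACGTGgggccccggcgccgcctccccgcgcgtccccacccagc
Of 32851 promoter windows of the same length, 32.7% held a GC box, 6.02% an E-box, 12.4% the TATA motif and 1.55% the cAMP response element, and the median window held 6 CpG dinucleotides. Fewer CpG dinucleotides than in the window of Napepld were found in 83.7% of all windows, fewer than in the upstream and downstream windows of Mgll in 86.7% and 98.7%, and fewer than in that of Faah in 59.7%. These matches describe letters in the windows, and binding was not measured.

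Cnr1 is placed at chr4:33922982-33948836 on the plus strand (GRCm39). Exon overlap with non-coding genes on the other strand covers 2.16% of its bases, and 1.984% and 0.5817% of those of Abhd6 and Abhd12. The level of Cnr1 in Control mice ranged from 170 to 208 CPM with a median of 184 CPM. The EtOH mice were at 161.9, 145.8, 203.2, 174.1 and 154.2 CPM, replicates 1 to 5. EtOH mouse 3 lay near the top of the Control range, 3 of the other 4 lay below it, and the groups overlapped. The group means were 184 ± 14.01 CPM in Control (SD, n = 7) and 168 ± 22.3 CPM in EtOH (SD, n = 5). The log2 fold change was -0.13 with a 95% interval from -0.29 to 0.03 (edgeR, adjusted p = 0.218). Without EtOH mouse 3 the difference passed the test at a log2 fold change of -0.21 (adjusted p = 0.0354 in edgeR). That was still short of the fold minimum for a call. In every other fit that left out a single mouse, Cnr1 did not pass (edgeR, adjusted p from 0.150 to 0.399).

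**Figure D2:**
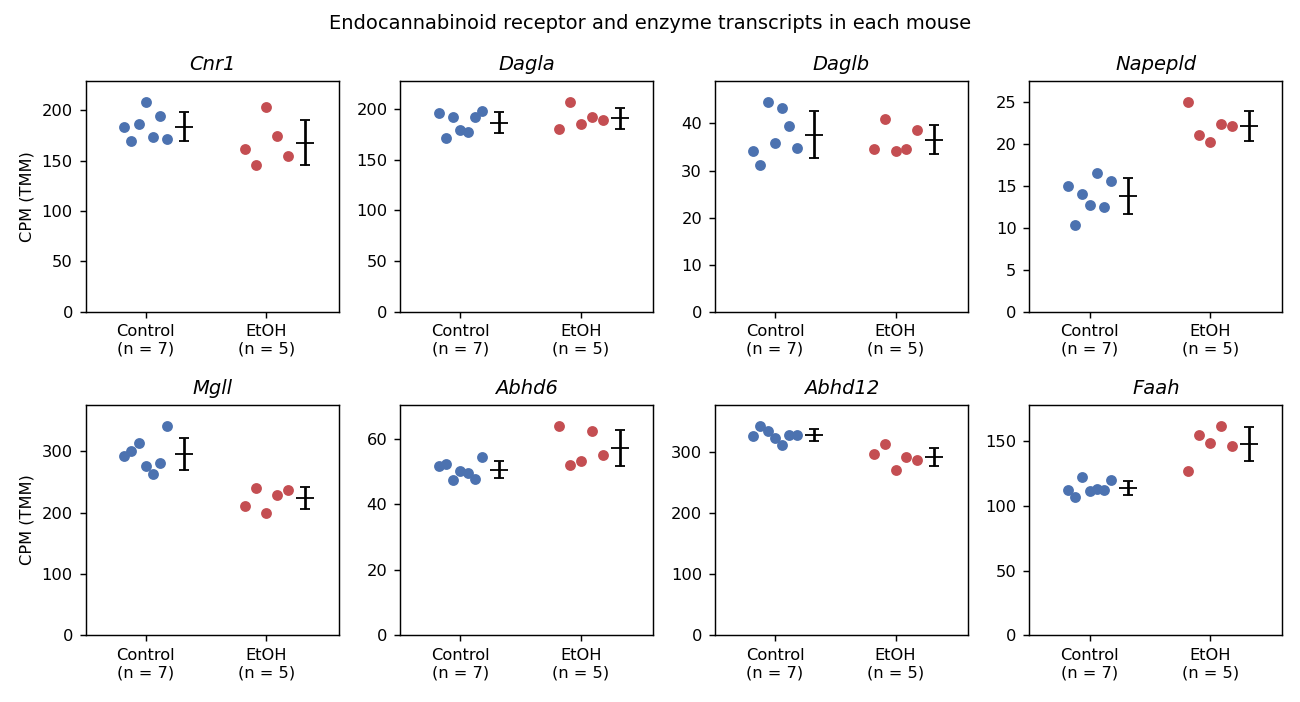
Levels of the 8 genes in each mouse, in CPM on linear axes that start at 0, with 1 point per mouse (Control blue, EtOH red) and the group mean ± SD beside the points. Napepld and Faah of the EtOH mice lie above all Control mice and Mgll lies below them, whereas the groups overlap for the other genes.

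Among the enzymes of 2-AG synthesis, Dagla, which makes most 2-AG in the adult brain, was at 171 to 198 CPM in Control mice with a median of 192 CPM. It was at 180.2, 206.8, 185.0, 192.3 and 188.7 CPM in the EtOH mice. The groups overlapped nearly completely, with means of 187 ± 10.5 CPM (SD, n = 7) and 191 ± 10.1 CPM (SD, n = 5). The log2 fold change of Dagla was 0.03, with a 95% interval from -0.08 to 0.14 (edgeR, adjusted p = 0.706). Its paralog Daglb ranged from 31.2 to 44.6 CPM in Control mice with a median of 35.9 CPM, and was at 34.5, 41.0, 34.1, 34.5 and 38.5 CPM in the EtOH mice. All EtOH values of Daglb lay inside the Control range. Its log2 fold change was -0.04, with a 95% interval from -0.22 to 0.14 (edgeR, adjusted p = 0.755). Dagla lies at chr19:10222629-10282320 on the minus strand, and Daglb at chr5:143450236-143496130 on the plus strand, where 16.05% of its exon bases overlap exons of Rac1 on the other strand. Reads of Daglb and Rac1 therefore cannot be told apart there if the counting did not use strand, which is not given in the sources used here.

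Napepld, which releases anandamide and other N-acylethanolamines from membrane phospholipids, was the enzyme with the highest fold change. In Control mice its level ranged from 10.4 to 16.5 CPM with a median of 13.95 CPM. The EtOH mice were at 24.9, 21.0, 20.2, 22.3 and 22.0 CPM, all of them above the highest Control mouse. The means were 13.8 ± 2.09 CPM (SD, n = 7) and 22.1 ± 1.79 CPM (SD, n = 5), a fold change of 1.61. On the log2 scale the change was 0.68 ± 0.10 (SE), with a 95% interval from 0.48 to 0.89 (edgeR, adjusted p = 8.05e-05). By p-value Napepld was at rank 430 of the 16059 genes tested, and by the size of its fold change at rank 1149. Napepld lies at chr5:21867688-21923575 on the minus strand (GRCm39) and shares 5.034% of its exon bases with Armc10 on the other strand. Its counts, 338 to 1076 per mouse, were the lowest of the 8 genes.

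Turning to breakdown, Mgll, the serine hydrolase that removes most 2-AG in brain tissue, lies at chr6:88652108-88805342 on the plus strand. Control mice ranged from 263 to 341 CPM with a median of 293 CPM. The EtOH mice were at 211.0, 240.7, 199.3, 229.0 and 236.4 CPM, and each of them lay below the lowest Control mouse. The means were 295 ± 26.0 CPM (SD, n = 7) and 223 ± 17.6 CPM (SD, n = 5). The log2 fold change of Mgll was -0.40 ± 0.07 (SE), with a 95% interval from -0.55 to -0.26 (edgeR, adjusted p = 0.000342). This corresponds to a fold change of 0.756, so that Mgll passed the test but not the fold minimum. Exons of Mgll share 8.026% of their bases with the non-coding gene Gm26588 on the other strand.

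Abhd12 (chr2:150674408-150746693, minus strand), a hydrolase of 2-AG and of lysophosphatidylserine, was also lower. It ranged from 312 to 343 CPM in Control mice with a median of 329 CPM, and was at 296.7, 312.4, 270.6, 292.6 and 287.2 CPM in the EtOH mice. The groups met at their edges, since EtOH mouse 2 at 312.4 CPM lay just above Control mouse 5 at 311.6 CPM. The log2 fold change of Abhd12 was -0.17 ± 0.05 (SE), with a 95% interval from -0.27 to -0.07 (edgeR, adjusted p = 0.0146). Abhd6 (chr14:14411450-14468795, minus strand), a membrane-bound hydrolase of 2-AG found at postsynaptic sites, moved the other way. Its Control mice ranged from 47.3 to 54.6 CPM with a median of 50.04 CPM, and its EtOH mice were at 64.0, 51.9, 53.2, 62.4 and 55.2 CPM. EtOH mice 1, 4 and 5 lay above every Control mouse, and EtOH mice 2 and 3 lay within the Control range. The log2 fold change of Abhd6 was 0.18 ± 0.06 (SE), with a 95% interval from 0.05 to 0.31 (edgeR, adjusted p = 0.0396). In 8 of 12 fits that left out a single mouse, the adjusted p of Abhd6 rose above 0.05, to between 0.0540 and 0.116 (without Control mouse 1, 3, 4, 5 or 6, or EtOH mouse 1, 4 or 5).

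Faah, which cleaves anandamide and other fatty acid amides, lies at chr4:115824342-115875423 on the minus strand and has no exon overlap with another gene. In Control mice it ranged from 107 to 123 CPM with a median of 112 CPM. The EtOH mice were at 127.2, 155.0, 148.3, 161.9 and 146.0 CPM, all above the Control range, with EtOH mouse 1 the nearest to it. The means were 114 ± 5.51 CPM (SD, n = 7) and 148 ± 13.03 CPM (SD, n = 5), a fold change of 1.30. The log2 fold change of Faah was 0.37 ± 0.06 (SE), with a 95% interval from 0.25 to 0.50 (edgeR, adjusted p = 0.000184). Transcripts of both anandamide enzymes were therefore higher in EtOH mice, and enzyme activity and lipid levels were not analysed here.

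Scaled to the length of the merged exons, the 8 genes spanned a wide range of levels. In Control mice the order was Mgll at 47.8 ± 4.21, Abhd12 at 24.1 ± 0.720, Cnr1 at 19.6 ± 1.49, Dagla at 18.2 ± 1.02, Faah at 10.3 ± 0.498, Abhd6 at 7.21 ± 0.370, Daglb at 2.25 ± 0.298 and Napepld at 1.89 ± 0.287 CPM per kb (SD, n = 7). Cnr1 and Dagla overlapped in this order, as did Daglb and Napepld, and all other neighbours were apart in every Control mouse. In EtOH mice Mgll was still the highest at 36.1 ± 2.84 CPM per kb (SD, n = 5), followed by Abhd12 at 21.5 ± 1.12, Dagla at 18.6 ± 0.988, Cnr1 at 17.9 ± 2.38, Faah at 13.4 ± 1.18 and Abhd6 at 8.19 ± 0.785 CPM per kb. Napepld at 3.03 ± 0.246 CPM per kb stood above Daglb at 2.19 ± 0.185 CPM per kb without overlap, whereas these genes overlapped in Control mice. Overlaps in the EtOH order were found between Abhd12 and Dagla and between Dagla and Cnr1. Between mice of the same group, the coefficient of variation ranged from 2.98% for Abhd12 to 15.2% for Napepld in Control and from 5.20% for Abhd12 to 13.3% for Cnr1 in EtOH. Merged exons include all annotated isoforms, so that a gene with a long rare isoform is set too low on this scale.

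**Figure D3:**
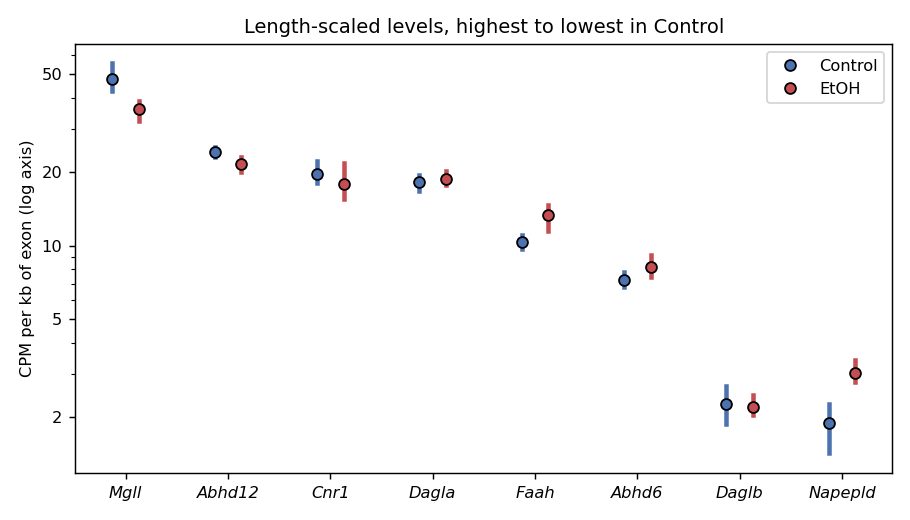
Length-scaled levels of the 8 genes in CPM per kb of merged exon on a log axis, ordered by the Control mean, with points for group means and bars from the lowest to the highest mouse (Control n = 7, EtOH n = 5). The bars of Napepld and Daglb overlap in Control mice and separate in EtOH mice.

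The balance between the enzymes was described on the same length-scaled values, with no test. Shares depend on the merged exon lengths, which were 6180 bases for Mgll and 13582 bases for Abhd12. Without length scaling Abhd12 was above Mgll, at means of 328 and 295 CPM in Control and 292 and 223 CPM in EtOH. Mgll made up 60.3% ± 1.65 of the summed level of the 3 hydrolases of 2-AG in Control mice (58.7% to 63.3%) and 54.9% ± 1.76 in EtOH mice (52.4% to 56.9%). The share of Abhd6 was 9.12% ± 0.482 in Control (8.24% to 9.72%) and 12.5% ± 1.30 in EtOH (10.7% to 14.03%). Neither share overlapped between the groups, whereas that of Abhd12, 30.6% ± 1.39 in Control and 32.7% ± 0.940 in EtOH, did. Dagla contributed 89.0% ± 1.33 of the summed level of both diacylglycerol lipases in Control and 89.5% ± 0.493 in EtOH. The ratio of Dagla to Mgll was 0.383 ± 0.0282 in Control and 0.516 ± 0.0283 in EtOH, higher in every EtOH mouse than in any Control mouse. For anandamide, the ratio of Napepld to Faah was 0.183 ± 0.0247 in Control and 0.229 ± 0.0391 in EtOH, with overlap. The ratio of Mgll to Faah was 4.64 ± 0.330 in Control and 2.71 ± 0.240 in EtOH, the EtOH mice lying below all Control mice. That separation follows from the values of Mgll and Faah, each of which was already without overlap. Errors are SD over 7 and 5 mice.

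To place these genes in their pathway, 50 further genes were listed by role, of which 44 could be tested. With the fold minimum, 2 were called higher, Pla2g4e and Homer2, and 0 lower by edgeR, DESeq2 and limma voom alike (4.55% of those tested in edgeR, beside 4.20% higher and 4.09% lower over all genes), and 9 were lower at an unadjusted p under 0.05. With no minimum fold, 8 were higher and 7 were lower, 34.1% of those tested, beside 12.1% higher and 11.6% lower over all genes, and the median log2 fold change was 0.06. Pla2g4e, a calcium-dependent N-acyltransferase that makes the precursor on which Napepld acts, ranged from 6.28 to 15.02 CPM in Control (median 10.2) and from 11.2 to 23.4 CPM in EtOH (median 14.8). The groups overlapped, and its log2 fold change was 0.64 ± 0.20 (SE; edgeR, adjusted p = 0.0263). Homer2, a scaffold protein that binds group I metabotropic glutamate receptors, ranged from 49.4 to 73.3 CPM in Control (median 63.0) and from 75.8 to 99.6 CPM in EtOH (median 90.7), without overlap. Its log2 fold change was 0.52 ± 0.10 (SE; edgeR, adjusted p = 0.00109). Exons of both genes overlap non-coding genes over 5.01% (Pla2g4e) and 3.979% (Homer2) of their bases. Leaving out a single mouse ended the call of Homer2 (Control mouse 1, 2 or 3, or EtOH mouse 3) or of Pla2g4e (Control mouse 1 or 4, or EtOH mouse 2 or 3).

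The remaining pathway genes are named after their values were seen, and their counts by role, at an adjusted p under 0.05 with no minimum fold, stand beside 12.1% higher and 11.6% lower over all genes. Of the 6 tested genes of other synthesis routes, most of them for N-acylethanolamines, 1 was higher, Pla2g4e, and 3 were lower. The lower genes had log2 fold changes of -0.17 for the lipase Abhd4 (edgeR, adjusted p = 0.0253), -0.23 for the phosphodiesterase Gde1 (adjusted p = 0.00254) and -0.35 for the acyltransferase Plaat1 (adjusted p = 0.00761). Gde1 was lower in every EtOH mouse than in any Control mouse. Among the 3 tested genes of other breakdown routes, Ptgs2, the cyclooxygenase that also oxidises 2-AG, rose by a log2 fold change of 0.39 (adjusted p = 0.00549 in edgeR). The hydrolase Naaa, which cleaves palmitoylethanolamide, had a log2 fold change of 0.04 with a 95% interval from -0.08 to 0.15. Of 13 genes of the Gq-coupled arm that drives 2-AG synthesis, 4 were higher, Homer2 among them, and 2 lower. The receptors Grm5 and Chrm1 were higher by 0.34 (edgeR, adjusted p = 0.00826) and 0.16 (adjusted p = 0.0306), as was the G protein Gnaq by 0.20 (adjusted p = 0.00286) on the log2 scale. The phospholipases Plcb4 and Plcb2 were lower, at log2 fold changes of -0.39 (edgeR, adjusted p = 0.0122) and -0.44 (adjusted p = 0.0328).

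Around the receptor, 1 of 9 partner genes was lower, a share (11.1%) near that over all genes (11.6%). It was the arrestin Arrb1, at a log2 fold change of -0.19 (adjusted p = 0.00744 in edgeR), with means of 410 ± 17.2 CPM in Control (SD, n = 7) and 360 ± 11.6 CPM in EtOH (SD, n = 5). Every EtOH mouse lay below every Control mouse for Arrb1. The interacting proteins Cnrip1 and Sgip1, which bind the tail of CB1 or slow its internalisation, had log2 fold changes of 0.07 with a 95% interval from -0.07 to 0.21 and 0.08 with an interval from -0.06 to 0.22. Of the other receptors for these lipids, Gpr55 had a log2 fold change of -0.21 with an interval from -0.73 to 0.30, Ppara 0.04 with an interval from -0.43 to 0.51 and Pparg -0.14 with an interval from -0.43 to 0.14, none of which passed the test, and all were at or below 4.31 CPM on average in Control. Cnr2, Gpr18, Gpr119 and Trpv1 did not pass the filter on low counts and were not tested. Cnr2, the second cannabinoid receptor, was at 0.248 ± 0.126 CPM in Control (SD, n = 7) and 0.198 ± 0.0750 CPM in EtOH (SD, n = 5). Among 6 channel and release genes on which CB1 acts, the potassium channel Kcnj9 and the calcium channel Cacna1b were higher, by 0.26 (edgeR, adjusted p = 0.0247) and 0.29 (adjusted p = 0.00822) on the log2 scale. Of 4 lipid carriers, Scp2 was lower at a log2 fold change of -0.21 (adjusted p = 0.0175 in edgeR). Apart from Pla2g4e and Homer2, every pathway gene that passed the test changed by less than 0.5 on the log2 scale.

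**Figure D4:**
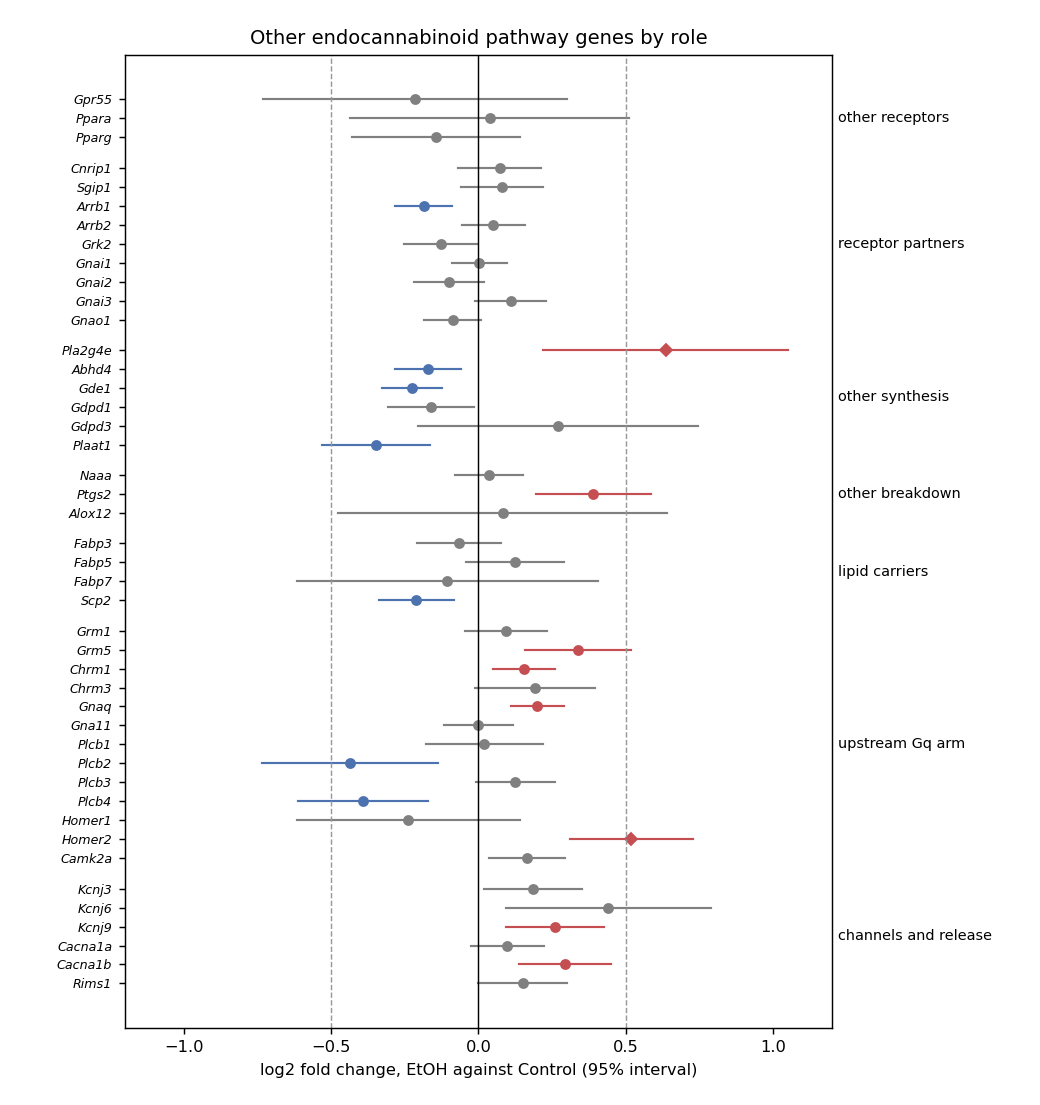
Log2 fold changes, EtOH against Control, of the 44 tested pathway genes grouped by role, with 95% intervals from edgeR. Diamonds mark the called genes Pla2g4e and Homer2, red and blue mark genes higher or lower at an adjusted p under 0.05, and grey marks genes that did not pass.

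Markers of other regions and cell types also differed between these mice. They were listed with earlier results of these data known, so their counts are a description. Counts are at an adjusted p under 0.05 with no minimum fold, at which 12.1% of all genes were higher and 11.6% lower. All 12 striatum markers were lower in EtOH, with a mean log2 CPM of 6.45 in Control and 3.57 in EtOH. Of the 8 hippocampus markers 7 were higher, with a mean log2 CPM of 1.45 in Control and 3.49 in EtOH and a summed level of 110 to 151 CPM in Control and 223 to 302 CPM in EtOH. Of the 3 tested choroid plexus markers out of 4 listed, 3 were higher, with a summed level of 5.55 to 15.9 CPM in Control and 11.1 to 969 CPM in EtOH. Among 8 genes listed as markers of cholecystokinin interneurons, the cells with the most Cnr1 in cortex, 3 were lower and 2 higher. Whether the list is particular to these cells was not tested. The summed level of the list, 449 to 620 CPM in Control and 405 to 443 CPM in EtOH, was mostly Cck (mean 352 and 268 CPM). The mean log2 CPM of the list overlapped between the groups (4.03 to 4.24 in Control and 3.97 to 4.13 in EtOH). GABA neuron markers were lower in 3 of 5 genes, at 878 to 1210 CPM in Control and 743 to 792 CPM in EtOH. Oligodendrocyte markers were lower in 8 of 9 genes, at 4470 to 5937 CPM in Control and 2996 to 5354 CPM in EtOH. Astrocyte markers were higher in 3 of 8 genes, at 3518 to 4021 CPM in Control and 3805 to 4324 CPM in EtOH. Of 8 markers of microglia, cells known to express Abhd12, 5 were lower, at 305 to 336 CPM in Control and 265 to 289 CPM in EtOH. Endothelial markers were lower in 1 of 5 genes, at 151 to 174 CPM in Control and 144 to 162 CPM in EtOH, and the 3 red blood cell markers summed to 8.08 to 109.8 CPM in Control and 8.04 to 62.4 CPM in EtOH. No listed marker was at 0 in all mice. Relations of the 8 genes with the striatum and hippocampus markers were tested within Control mice only, and the part of any of these markers in the differences between the groups was not tested.

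Scores of the striatum and hippocampus markers (mean log2 CPM) did not overlap between the groups, and the 8 genes were compared with both scores within the 7 Control mice alone, 16 relations in all. The GABA neuron, astrocyte and microglia scores did not overlap between the groups either, and relations with them were not tested. None passed an adjusted p under 0.05 in an exact two-sided permutation test, whose smallest possible p is 0.000397. Napepld had the striatum relation with the largest r in size, with Pearson's r = -0.79 (exact permutation p = 0.0355, adjusted p = 0.383) and Spearman's rho = -0.93 (exact permutation p = 0.00675, adjusted p = 0.108). Without the 2 mice farthest from the median score, r was -0.79. For Faah, r was -0.77 (exact permutation p = 0.0478, adjusted p = 0.383) and rho -0.86 (exact permutation p = 0.0238, adjusted p = 0.190), and r was -0.96 without those 2 mice. Mgll had r = -0.50 (exact permutation p = 0.250, adjusted p = 0.581) and rho = -0.21 (exact permutation p = 0.662, adjusted p = 0.878) within Control, and r = -0.38 without those 2 mice. Cnr1 had r = 0.35 (exact permutation p = 0.45, adjusted p = 0.596) and rho = 0.18 (exact permutation p = 0.713, adjusted p = 0.878), and its r turned to -0.37 without those 2 mice. The r of Abhd6 and Daglb with the striatum score also moved without those 2 mice, with r = -0.32 (exact permutation p = 0.499, adjusted p = 0.596) and 0.62 without them for Abhd6, and r = -0.30 (exact permutation p = 0.521, adjusted p = 0.596) and -0.81 without them for Daglb. With the hippocampus score, r ranged from -0.60 for Abhd12 (exact permutation p = 0.159, adjusted p = 0.581) to 0.58 for Daglb (exact permutation p = 0.165, adjusted p = 0.581). Cnr1 had r = -0.35 with the hippocampus score (exact permutation p = 0.451, adjusted p = 0.596), which turned to 0.85 without the 2 mice farthest from its median. Without the same 2 mice, the hippocampus r of Napepld went from 0.47 (exact permutation p = 0.291, adjusted p = 0.581) to -0.07, and that of Dagla from -0.11 (exact permutation p = 0.815, adjusted p = 0.870) to 0.30.

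**Figure D5:**
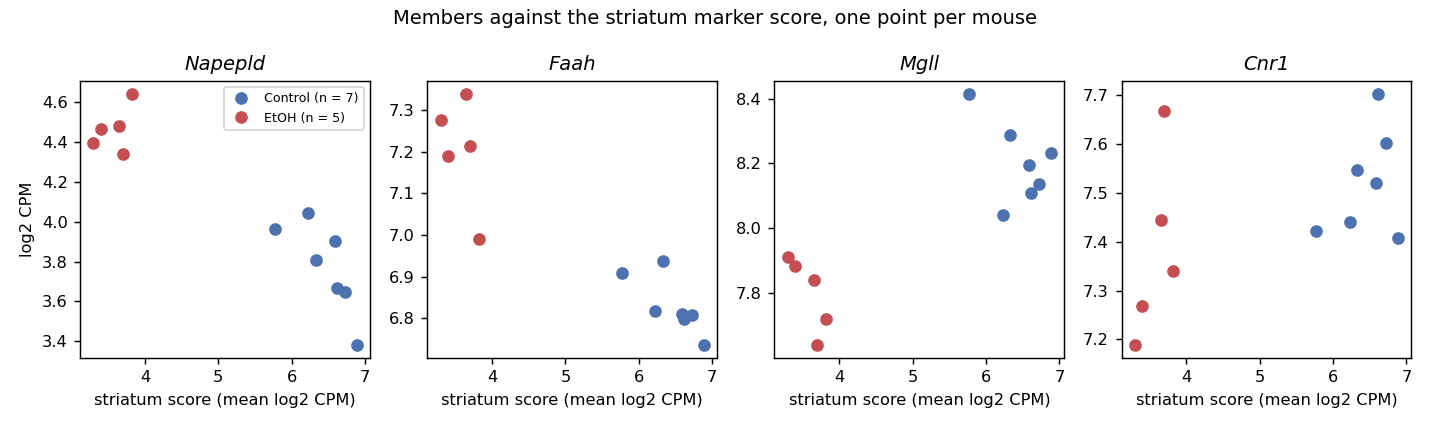
Log2 CPM of Napepld, Faah, Mgll and Cnr1 against the striatum score (mean log2 CPM of 12 markers), with 1 point per mouse (7 Control, 5 EtOH). The groups form separate clusters along the score in every panel, and within Control mice r was -0.79 for Napepld and -0.77 for Faah, neither of which passed the adjusted test.

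The genes whose log2 CPM followed each changed gene most closely were taken from 14173 genes with a mean of at least 1 CPM, as a description over 12 mice that share the split into groups. For Napepld they were Btbd11 (r = 0.97), Sez6l (r = 0.97) and Prdm8 (r = 0.96), and r was 0.86, 0.83 and 0.81 after the group means were removed. Sez6l and Prdm8 were higher in EtOH, at log2 fold changes of 0.55 and 0.70. Mgll was followed by the potassium channel Kcnk3 (r = 0.97), the transcriptional cofactor Lmo4 (r = 0.96) and Spats2 (r = 0.96), with r of 0.98, 0.84 and 0.83 after the group means were removed. For Faah they were Chrd (r = 0.97), the potassium channel Kcnc4 (r = 0.96) and Tbata (r = 0.95), and r fell to 0.83, 0.78 and 0.72 without the group means. Abhd12 was followed by Cited4 (r = 0.96), Slc25a33 (r = 0.95) and Pknox1 (r = 0.95), and Abhd6 less closely by Sec14l2 (r = 0.89), Sin3b (r = 0.87) and Aldh3a2 (r = 0.86). Without the group means, r was 0.87, 0.84 and 0.80 for Abhd12 and 0.83, 0.79 and 0.80 for Abhd6. Cited4 was lower in EtOH at a log2 fold change of -0.92, and Chrd and Tbata were higher at 0.98 and 1.13.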

How the data were processed

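RNA of mouse cortex was sequenced in 12 mice. The authors checked the reads with FastQC (0.11.9, per the submitters' processing notes), used STAR to align them to GRCm39 (Gencode Release 28) and featureCounts to count them per gene, compared the groups with DESeq2, and deposited expected counts per gene symbol, without normalization; 61 symbols held values that are not whole. Strand and multi-mapping settings are not given in the sources used here. The number of weeks stated for the drinking period differs between sections of the study's text, so it is given in days.

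Counts were rounded to whole numbers, filtered with filterByExpr (16059 genes), scaled with TMM factors (0.982 to 1.02) and tested by the quasi-likelihood method of edgeR, with p-values adjusted over all genes after Benjamini and Hochberg (R 4.3.3, edgeR 4.0.16, limma 3.58.1). The thresholds for a call were 0.05 for the adjusted p and 0.5 for the size of the log2 fold change. The SE is the log2 fold change divided by the square root of F. Scores are means of log2 CPM with a prior count of 2. The floor of 3 counts was 0.0695 to 0.0962 CPM, which covers counting error only. Positions and exon lengths are from a newer Gencode annotation of GRCm39, and promoters from a RefSeq table.

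The 8 genes and all lists were chosen with earlier results of these data known. Named were all 8 genes, pathway genes that were called, and for each of the 8 genes at an adjusted p under 0.05 the 3 genes with the highest Pearson r. Other pathway and marker genes were named after their values were seen. Groups come from the sample titles, and 0 columns were left unmatched. No batch is given in the labels. They name each sample as a mouse cortex but not its cage or litter, and p-values measure the spread between these samples. Replicates were not copies of a library (lowest chi-square per degree of freedom within a group 7.77). Alternatives were DESeq2 1.42.0, limma voom, other scaling factors, filters and fold minimums, the replicate number as a block, and each mouse left out in turn. The fits were tested on simulated data. The study's other experiments were not analysed here.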

Additional observations from a re-analysis of the deposited data

Results flagged for a closer look

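None of the 8 genes had a mouse far from the others of its group by Dixon's test at 95%. The test flagged 3 of 44 group comparisons, and about 2.2 are flagged by chance. The total count of Control mouse 5 was 40690226, far above the next highest of 32356909 in its group. EtOH mouse 1 had a total count of 42183031, and the next highest EtOH mouse 33313165. The red blood cell score (mean log2 CPM of 3 markers) of Control mouse 6 was 4.53, and the next highest Control mouse was at 2.15.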

How the results depend on the processing

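Napepld was called higher, and Mgll lower and Faah higher at any fold, with DESeq2, limma voom, other scaling factors and filters, the replicate block and each mouse left out. With no fold minimum, 1947 genes were higher and 1863 lower, among them 3 and 2 of the 8 genes and 8 and 7 of the pathway genes. With a fold minimum of 1 on the log2 scale, 242 genes were higher and 282 lower, and 0 of the 8 genes and 0 pathway genes were higher. Replicate numbers did not pair the mice (correlation of same-numbered deviations -0.11 to 0.02 over 5 pairs, and 0 of 5 EtOH mice correlated best with their own number). With the replicate block, 1 of the 8 genes was lower at any fold, since Abhd12 missed the threshold (adjusted p = 0.0609), Abhd6 also missed it (adjusted p = 0.0667), 1 pathway gene, Plcb2, was called lower, and Kcnj6 joined the pathway genes called higher. With a filter of at least 1 count in any mouse, the adjusted p of Abhd6 was 0.0530. With a single mouse left out, 0 to 3 pathway genes were called higher and 0 to 1 lower (Plcb2 without EtOH mouse 5, and Kcnj6 also called higher without Control mouse 5). Over the same fits, the log2 fold change of Daglb ranged from -0.094 to 0.0022, reversed without Control mouse 3, and that of Dagla from -0.0068 to 0.055, reversed without EtOH mouse 2. The cause of these changes was not tested. Cnr2, at 2 to 14 counts per mouse, did not pass the filter, and the effect of depth was not tested.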
